A study of Mus musculus with 108 samples.

Results

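Acinar cells, which make and secrete the digestive enzymes of the exocrine pancreas, were ordered by the balance of their amylase and trypsinogen transcripts. For each single cell of the series, the summed level of 6 amylase genes (Amy2a1, Amy2a2, Amy2a3, Amy2a4, Amy2a5 and Amy2b) was divided by the summed level of 3 trypsinogen genes (Prss2, Try4 and Try5). Levels are TPM, a cell's transcript shares corrected for transcript length and scaled to a total of 1000000. The ends of the order were chosen by this measured ratio: the 27 cells of highest ratio are called amylase-weighted, the 27 of lowest ratio trypsinogen-weighted, and the remaining 54 middle cells, and together these are all cells of the series. All cells came from the pancreas of untreated C57Bl/6 males, 12 weeks old, whose tissue was dispersed with collagenase and Accutase before single cells were lysed. Their cDNA was amplified by a modified SMART-seq2 method, which uses PCR and has no molecular identifiers. The labels put every cell in 1 group and name no animal, day or plate. The cells therefore counted as 1 sample, differences carry neither p-values nor standard errors, and each one describes these cells alone.

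Amylase cleaves starch, whereas trypsinogens are inactive proteases that become trypsin in the gut and then activate the other pancreatic zymogens. An acinar cell makes both, folds them in the endoplasmic reticulum (ER) and stores them together in zymogen granules until a meal triggers secretion. Both families are encoded by clusters of closely similar gene copies, and short reads from such copies are hard to assign to 1 of them.

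The amylase genes of the ratio lie on mouse chromosome 3 of the GRCm38 build, on the minus strand. Amy2a1 spans 113529403 to 113532428 and Amy2a5 spans 113247178 to 113258837 there. In GENCODE release M21, the Amy2a1 transcript is only 890 bases long, against 3715 for Amy2a5 and 3717 for each of Amy2a2, Amy2a3 and Amy2a4. The last 3 are identical in sequence and carried identical values in every cell. All 890 bases of Amy2a1 aligned with the first 890 of Amy2a5, and 889 matched. The single difference, T43A (counted from 1 at the 5′ end, Amy2a5 base first), lies before the coding sequence, which starts at base 156. A read from the 5′ part of these transcripts can thus come from either gene, and Amy2a1 was annotated there as a 5′ part of the others. Amy2b is annotated as an unprocessed pseudogene. The first 72 coding bases of Amy2a5 are shown because Amy2a1 has the same 72:
Amy2a5: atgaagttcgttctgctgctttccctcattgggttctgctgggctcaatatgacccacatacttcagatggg

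The trypsinogen genes lie on chromosome 6, with Prss2 at 41521787 to 41525079 on the plus strand and Prss1, which is not in the ratio, at 41458932 to 41463786. Try4 and Try5 transcripts are both 801 bases long and share 778 of them. Prss1 matched Try4 at 739 of 801 aligned positions and Prss2 at 702 of 793. The first 72 coding bases, which hold the signal peptide and the activation peptide, show how close the copies are, with capitals at bases that differ from Prss2:
Prss2: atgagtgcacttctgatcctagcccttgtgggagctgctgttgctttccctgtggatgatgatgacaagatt
Try4: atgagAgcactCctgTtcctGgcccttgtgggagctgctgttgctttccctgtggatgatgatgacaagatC
Try5: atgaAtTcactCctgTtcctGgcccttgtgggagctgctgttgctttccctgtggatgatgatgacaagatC
Prss1: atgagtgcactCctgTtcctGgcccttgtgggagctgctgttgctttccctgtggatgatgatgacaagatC
Try4 differs from Prss2 at 5 of these positions, Try5 at 6 and Prss1 at 4. Sums over several copies of each family were used for the ratio, since a level of a single copy is uncertain. Other copies, such as Prss1, stayed outside the sums.

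The ratio ran from 0.319 in cell 26 to 1.45 in cell 98, with a median of 0.824 (SD 0.229 over all cells). Amylase exceeded trypsinogen in 24 cells, all of them amylase-weighted. The amylase-weighted cells ranged from 0.968 to 1.45 (median 1.09), the middle cells from 0.670 to 0.967 (median 0.824) and the trypsinogen-weighted cells from 0.319 to 0.667 (median 0.595). The ratio had no gap at either bound. Cell 13, just inside the amylase-weighted end, stood at 0.968 and cell 7, just outside, at 0.967, while cells 56 and 69 stood at 0.667 and 0.670 on either side of the lower bound. The ends are therefore the tails of 1 continuous range.

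**Figure D1:**
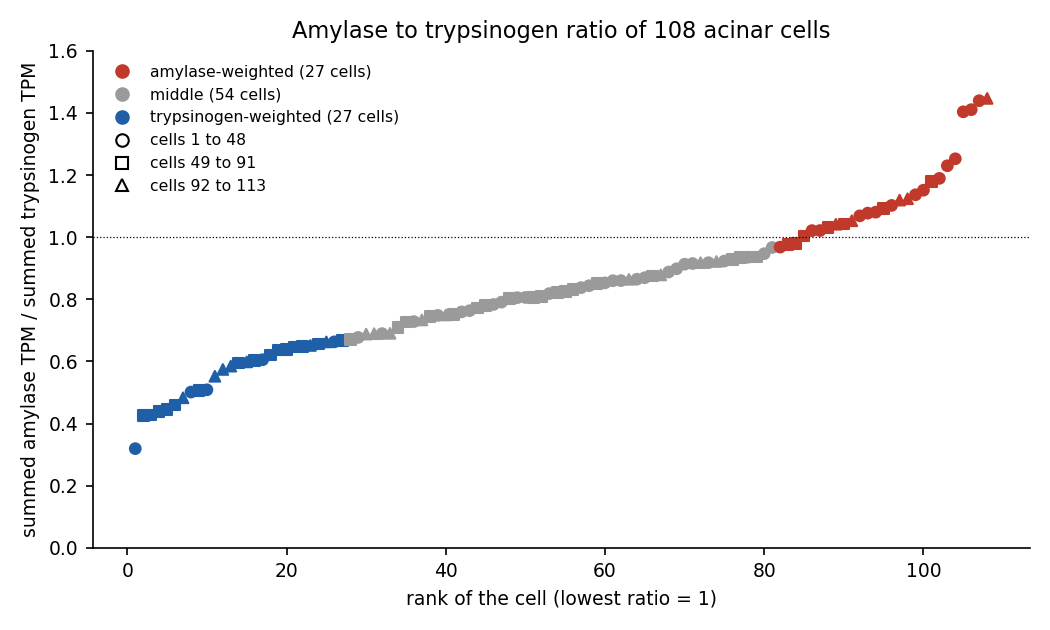
Ratio of summed amylase to summed trypsinogen TPM (vertical axis, no unit) of each cell against its rank. Colours mark the 27 amylase-weighted, 54 middle and 27 trypsinogen-weighted cells, marker shapes the cell-number sets, and the dotted line a ratio of 1; the values rise without a gap from 0.319 to 1.45, except for cell 26 below the rest and 4 cells above 1.4.

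Summed amylase was 173839 TPM at the median of the amylase-weighted cells (131841 to 226346) and 109006 in the trypsinogen-weighted cells (47464 to 143030). Summed trypsinogen was 154520 TPM (117796 to 195134) and 198714 (135711 to 248423). These values set the ranking and are given only to describe it. Amylase varied more between cells, with an SD of 0.34 on the log2 scale against 0.20 for trypsinogen. Over all cells (27, 54 and 27), the Spearman correlation of the ratio was 0.84 with summed amylase and -0.64 with summed trypsinogen, while the sums themselves correlated at -0.20. All of these share the same libraries and a fixed total. The ratio thus followed amylase more closely than trypsinogen, and cells high in one were only weakly low in the other.

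**Figure D2:**
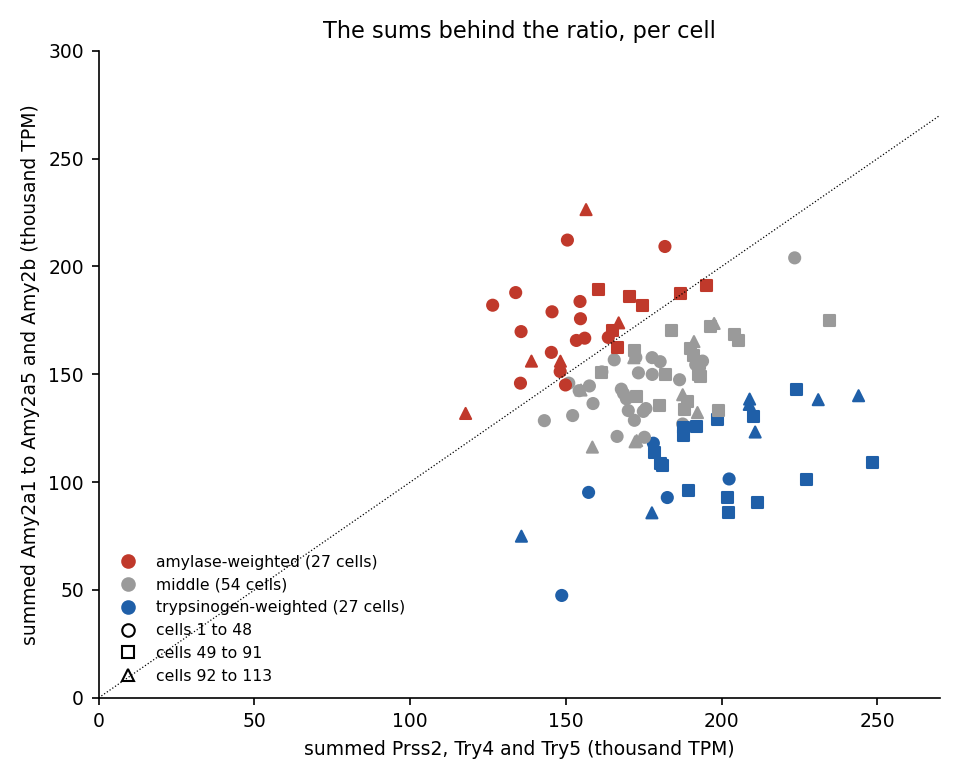
Summed TPM of the 6 amylase genes (vertical axis) against that of the 3 trypsinogen genes (horizontal axis), in the units given on the axes, 1 point per cell, coloured by place in the ranking and shaped by cell-number set. Points above the dotted line have a ratio over 1; the amylase sums spread more widely than the trypsinogen sums, and cell 26 lies lowest at 47464 TPM of amylase.

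Among the genes of the ratio, Amy2a1 had a median of 96769 TPM in the amylase-weighted cells (72095 to 130421), 79294 in the middle cells and 58132 in the trypsinogen-weighted cells (3942 to 81419). Amy2a5 stood at 28357, 22261 and 18764 TPM, and Amy2a2, like its identical copies, at 16613, 14697 and 12578. Of the trypsinogens, Prss2 had medians of 94945, 102325 and 111635 TPM in the same order. For Try4 these were 36716, 41613 and 53196, and for Try5 24535, 32187 and 33698. Prss2, the most abundant trypsinogen here, was also the least uneven of the 3. Amy2a1 made up 54.7% of the amylase sum at the median of the amylase-weighted cells and 50.8% in the trypsinogen-weighted cells, but only 8.31% in cell 26, the cell of lowest ratio.

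Both ends held acinar cells by their markers. Amy2a1, Prss2, Cpa1, Cela1, Pnlip and the transcription factors Ptf1a, Bhlha15 and Rbpjl were each detected (1 TPM or more) in all 27 cells of each end. Lymphocyte markers were detected in none of the cells, and no cell held 3 or more endocrine, macrophage, erythrocyte or adipocyte markers. Cell 40 held 9 of 11 endothelial and 3 of 13 stellate or fibroblast markers, led by Plvap at 25.4 TPM, and cell 96 held 6 of the latter 13, with Dcn highest at 12.6 TPM. Both were amylase-weighted, and cell 40 had the most genes detected of all cells (6946). Of the 16 ductal markers, a median of 6 was detected in either end. Genes detected numbered 4225 at the median of the amylase-weighted cells (2624 to 6946) and 3966 in the trypsinogen-weighted cells (2983 to 5032). Since TPM do not retain the number of reads, the depth of these cells is unknown.

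The ends also differed in where their cells stood in the numbering of the series. Of the amylase-weighted cells, 15 were among cells 1 to 48, 7 among cells 49 to 91 and 5 among the cells numbered from 92. Of the trypsinogen-weighted cells, these numbers were 5, 15 and 7. The median ratio was 0.888, 0.762 and 0.733 in the 3 sets. In the last set the deposited values sum to 788380 to 990520 TPM instead of 1000000. The labels give no animal or plate for the sets, so a set cannot be told apart from either, and each comparison was repeated with the 11, 10 and 5 highest and lowest cells of the 3 sets (26 cells a side, of which 23 amylase-weighted and 20 trypsinogen-weighted cells were shared with the first ranking).

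Across the other 7218 genes, most differences between the ends were small. A gene was called by fold and separation if its mean log2(TPM + 1) differed by at least log2 of 1.5 and the amylase-weighted cell was the higher in at least 70% of all pairs of cells from opposite ends, or the lower in as many. By this rule 77 genes (1.07%) were higher in the amylase-weighted cells and 4 (0.0554%) in the trypsinogen-weighted cells. By separation alone the counts were 371 (5.14%) and 31 (0.429%). The difference was above 0 for 4843 genes (67.1%), with a median of 0.09 on the log2 scale. The balance between the directions moved with the scaling and with the ranking. With median-of-ratios scaling, separation alone gave 164 and 134 genes, and ranked within sets it gave 173 (2.4%) and 69 (0.956%), with 19 (0.263%) and 10 (0.139%) by fold and separation and 61.2% of differences above 0. Leaving out cells 40 and 96 and 2 others that stood apart in an earlier analysis of these data, cells 31 and 37, gave 58 and 6 genes by fold and separation.

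Of the amylase and trypsinogen genes outside the ratio, 1 of 1 and 2 of 6 were called by fold and separation, each in the direction of its family. Over all genes, 1.07% were called higher and 0.0554% lower in the amylase-weighted cells. Their sequences resemble those of the ratio, so their values are not independent of the ranking. Amy1, the salivary amylase gene, had a median of 23.6 TPM in the amylase-weighted cells (12.3 to 57.8), 19.3 in the middle cells and 14.2 in the trypsinogen-weighted cells (5.38 to 58.5), a difference of 0.67 on the log2 scale. Prss1, another trypsinogen gene, showed the largest difference of all called genes in the opposite direction. Its medians were 13.2 TPM (1.05 to 117), 50.5 TPM and 67.4 TPM (3.29 to 194), a difference of -1.80, and the amylase-weighted cell was the higher in 17.8% of pairs. Within sets the difference was -1.73, and it was -1.17, -2.06 and -2.30 in the 3 sets alone. The ranges of the ends overlapped, although 8 trypsinogen-weighted cells lay above every amylase-weighted cell and 2 amylase-weighted cells below every trypsinogen-weighted cell. The trypsinogen-like Gm5409 was the other family member called, at -0.86. Try10, Prss3, Gm10334 and Gm5771 were not called, with differences of 0.02, 0.20, -0.35 and -0.13.

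Among the remaining proteases, the chymotrypsinogen Ctrb1 had the clearest separation of all genes on the deposited scale. Ctrb1 had a median of 86808 TPM in the amylase-weighted cells (61785 to 108333), 97561 in the middle cells and 114350 in the trypsinogen-weighted cells (87823 to 136916). In only 7.41% of pairs was the amylase-weighted cell the higher, and 17 trypsinogen-weighted cells lay above every amylase-weighted cell. The difference of -0.37 (SD 0.20 over amylase-weighted and 0.17 over trypsinogen-weighted cells) is under the fold of the call, so Ctrb1 counts by separation alone. The elastase-family gene Cela3b was alike, with medians of 25222, 27744 and 30208 TPM, a difference of -0.29 and 10.2% of pairs. Cela1 and Cela2a, the abundant elastases, differed by 0.05 each, a sign that turned to -0.08 with median-of-ratios scaling. Of the 8 elastase, chymotrypsin and kallikrein genes, 2 were called by separation, both lower in the amylase-weighted cells, against 0.429% of all genes, with a list median of -0.04 that turned to 0.03 and 0.01 when TPM were rescaled without the ratio's genes or without all enzymes. Rescaled without the ratio's genes, Ctrb1 had 10.6% of pairs. Gp2 (91.1%) and Serpini2 (90.5%) separated further there, as did Tmed2 by a small margin. Rescaled without all enzymes Ctrb1 had 22.1%, behind several genes, among them Gp2, Tram1, Tmed2, Serpini2, P4hb, Serp1, Amy1 and Prss1. For Ctrb1 the difference was -0.35 within sets and -0.50 to -0.30 over the other scalings, and for Cela3b -0.28 and -0.42 to -0.22.

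Several genes for lipases and carboxypeptidases leaned the other way. Of 6 lipase and colipase genes, 3 were called by separation, all higher in the amylase-weighted cells, against 5.14% of all genes. Cel, the bile salt-activated lipase, had medians of 21744, 21547 and 18557 TPM in amylase-weighted, middle and trypsinogen-weighted cells (difference 0.34). For Pnliprp1, a lipase-related protein, they were 8661, 7973 and 6765 (difference 0.36), and for the pancreatic lipase Pnlip 37660, 37155 and 35566 (difference 0.17). The colipase Clps was not called (-0.10). The carboxypeptidase gene Cpb1 was called, at 0.20, and Cpa1 was not (0.08). These differences shrank with median-of-ratios scaling, where Cpb1 stood at 0.08, Pnlip at 0.05 and Cpa1 at -0.05.

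Granule proteins and inhibitors split in both directions. Gp2, the major membrane glycoprotein of zymogen granules, had a median of 1607 TPM in the amylase-weighted cells (903 to 2294), 1344 in the middle cells and 1092 in the trypsinogen-weighted cells (797 to 1584). The amylase-weighted cell was the higher in 89.4% of pairs, and 15 amylase-weighted cells exceeded every trypsinogen-weighted cell. Serpini2, a pancreatic serpin, had medians of 262 (169 to 377), 225 and 193 TPM (110 to 302) and 89.8% of pairs. The differences were 0.53 for Gp2 and 0.52 for Serpini2, and 0.45 and 0.44 within sets, although Gp2 stood at -0.08 in the last set alone. The granule protein Sycn and the trypsin inhibitor Spink1 were lower in the amylase-weighted cells. Sycn had medians of 22282, 24300 and 29684 TPM (difference -0.33, 18.5% of pairs) and Spink1 of 2263, 2708 and 3115 TPM (-0.39, 18.9%). Of the 10 genes of this list, 3 were called higher by separation, against 5.14% of all genes, and 2 lower, against 0.429%.

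**Figure D3:**
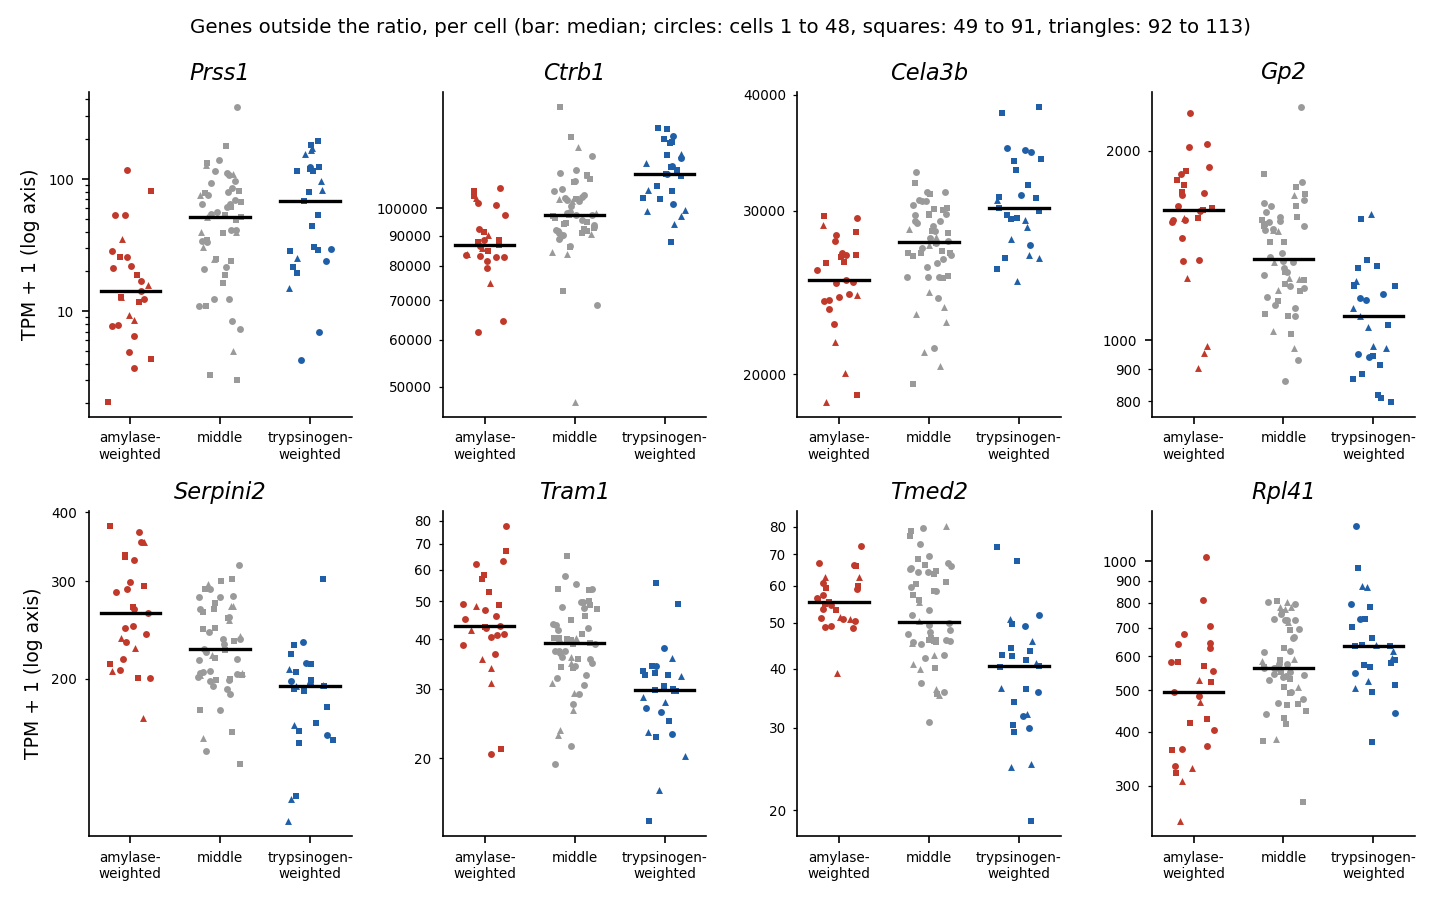
TPM + 1 on a log axis of 8 genes outside the ratio, 1 point per cell, for the 27 amylase-weighted, 54 middle and 27 trypsinogen-weighted cells, with bars at the medians and marker shapes for the cell-number sets. Prss1, Ctrb1, Cela3b and Rpl41 stand lower and Gp2, Serpini2, Tram1 and Tmed2 higher in the amylase-weighted cells, with the middle cells between and all ranges overlapping.

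Genes of the ER and of ER to Golgi traffic were mostly higher in the amylase-weighted cells. Of 16 disulfide isomerases and ER oxidases, which form and rearrange disulfide bonds, 10 were called by separation, all in that direction, against 5.14% of all genes, and their median difference was 0.42 against 0.09. P4hb, a protein disulfide isomerase, had a median of 169 TPM in the amylase-weighted cells (102.75 to 255) and 120 in the trypsinogen-weighted cells (56.1 to 195), a difference of 0.42. Pdia4 (0.73) and Tmx1 (0.59) were also called by fold. Pdia2, the pancreatic isomerase and the most abundant of them, was not called, at medians of 953 and 876 TPM and a difference of 0.06. Of 32 genes of ER translocation, signal peptidase and oligosaccharyltransferase, 12 were called, again all higher, against 5.14% of all genes. Their median was 0.26. Tram1, a protein beside the translocation channel, had medians of 42.4 TPM (19.5 to 76.6), 38.1 TPM and 28.7 TPM (12.8 to 54.5) and was the higher in 86.3% of pairs. Stt3a, a catalytic subunit that attaches glycans, differed by 0.81, Srp54a of the signal recognition particle by 0.86 and the signal peptidase subunit Spcs3 by 0.64.

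Of 37 genes of ER to Golgi traffic, 12 were called higher and 0 lower, against 5.14% and 0.429% of all genes. Their median was 0.23. Tmed2, a cargo receptor of transport vesicles, had medians of 54.3 TPM (38.2 to 71.8), 49.2 TPM and 39.5 TPM (17.97 to 71.3) and 88.8% of pairs. Of 24 ER chaperones 6 were called higher, against 5.14% of all genes, with a median of 0.25. Among the 6 were Serp1 (0.54), Sil1 (0.44, and 0.21 within sets) and Ppib (0.26, and 0.14 within sets). The chaperone Hspa5 was not called, at medians of 99.6 and 88.2 TPM. The transcription factors Xbp1 and Bhlha15, which drive secretory capacity in acinar cells, differed by 0.44 and 0.50 and were 2 of 17 acinar transcription factors called, against 5.14% of all genes. Within sets the call of Bhlha15 was lost (0.33, 61.8% of pairs), with the length index fitted out neither was called (56.1% of pairs for Xbp1 and 61.04% for Bhlha15), and Xbp1 had 69.4% with median-of-ratios scaling. None of 16 genes of the unfolded protein and integrated stress response was called, against 5.14% higher and 0.429% lower of all genes. Their median was 0.10, close to that of all genes. Of 19 genes of zymogen granule exocytosis, 2 were called higher, against 5.14% of all genes, with a median of 0.11 against 0.09. Within sets the called genes numbered 2 of 16 for the isomerases, 8 of 32 for translocation, 4 of 37 for traffic and 3 of 24 for chaperones, all higher, against 2.4% of all genes, with medians of 0.29, 0.19, 0.16 and 0.21 against 0.06 over all genes. The medians of these 4 lists lay above that of all genes under each of the 4 scalings, and were 0.30, 0.14, 0.11 and 0.14 against 0.02 with median-of-ratios scaling.

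Ribosomal protein genes leaned towards the trypsinogen-weighted cells under each of the 4 scalings. Of 78 genes, 8 had a difference above 0, against 67.1% of all genes, and the median was -0.16. By separation 11 were called, all lower, against 0.429% of all genes. Rpl41 had medians of 495 TPM (247 to 1023), 564 TPM and 632 TPM (377 to 1207), a difference of -0.40. Rplp1 differed by -0.33, Rps21 by -0.42 and Fau by -0.46. Ranked within sets, 30 of 78 were called lower, against 0.956% of all genes, with a median of -0.24. The list took 1.09% of all TPM at the median of the amylase-weighted cells and 1.17% in the trypsinogen-weighted cells, so the difference was under the spread of either end (SD 0.260 and 0.227 percentage points).

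Of 67 respiratory chain and ATP synthase genes, 4 were called higher, a share near the 5.14% of all genes, and 0 lower, with a median of -0.01 that turned to 0.06 and 0.04 under the rescalings and was -0.13 with median-of-ratios scaling. None of 21 immediate-early genes (median 0.06) or 17 cytosolic heat shock genes (median 0.11) was called, and neither Fos (0.01) nor Hspa8 (0.32) separated the ends. Of 32 lysosome and autophagy genes, 7 were called higher, against 5.14% of all genes, with a median of 0.20 against 0.09. Lamp2 (0.59), Ctsc (0.61) and Becn1 (0.62) were the 3 called by fold. Within sets 4 of the 32 were called (median 0.12), against 2.4% of all genes, and with the length index fitted out 2 (median 0.05), against 1.07%. Of 14 genes of signalling by secretagogues (triggers of secretion), insulin and steroids, 3 were called higher, against 5.14% of all genes. Their median was 0.19. Within sets 1 of the 14 was called, against 2.4% of all genes, and with the length index fitted out 0. The cholecystokinin receptor Cckar, through which meals trigger enzyme release, had medians of 38.5 and 26.2 TPM in amylase-weighted and trypsinogen-weighted cells, a difference of 0.36 with 77.1% of pairs. For Cckar the call was lost within sets (0.22, 67.3% of pairs) and with the length index fitted out (0.15, 63.2%), and the difference was -0.24 in the last set alone. The growth hormone receptor Ghr differed by 0.60 and was called by fold and separation. Within sets Ghr was called by separation only (0.49, 70.7% of pairs), and with the length index fitted out it was not called (0.29, 60.8%).

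**Figure D4:**
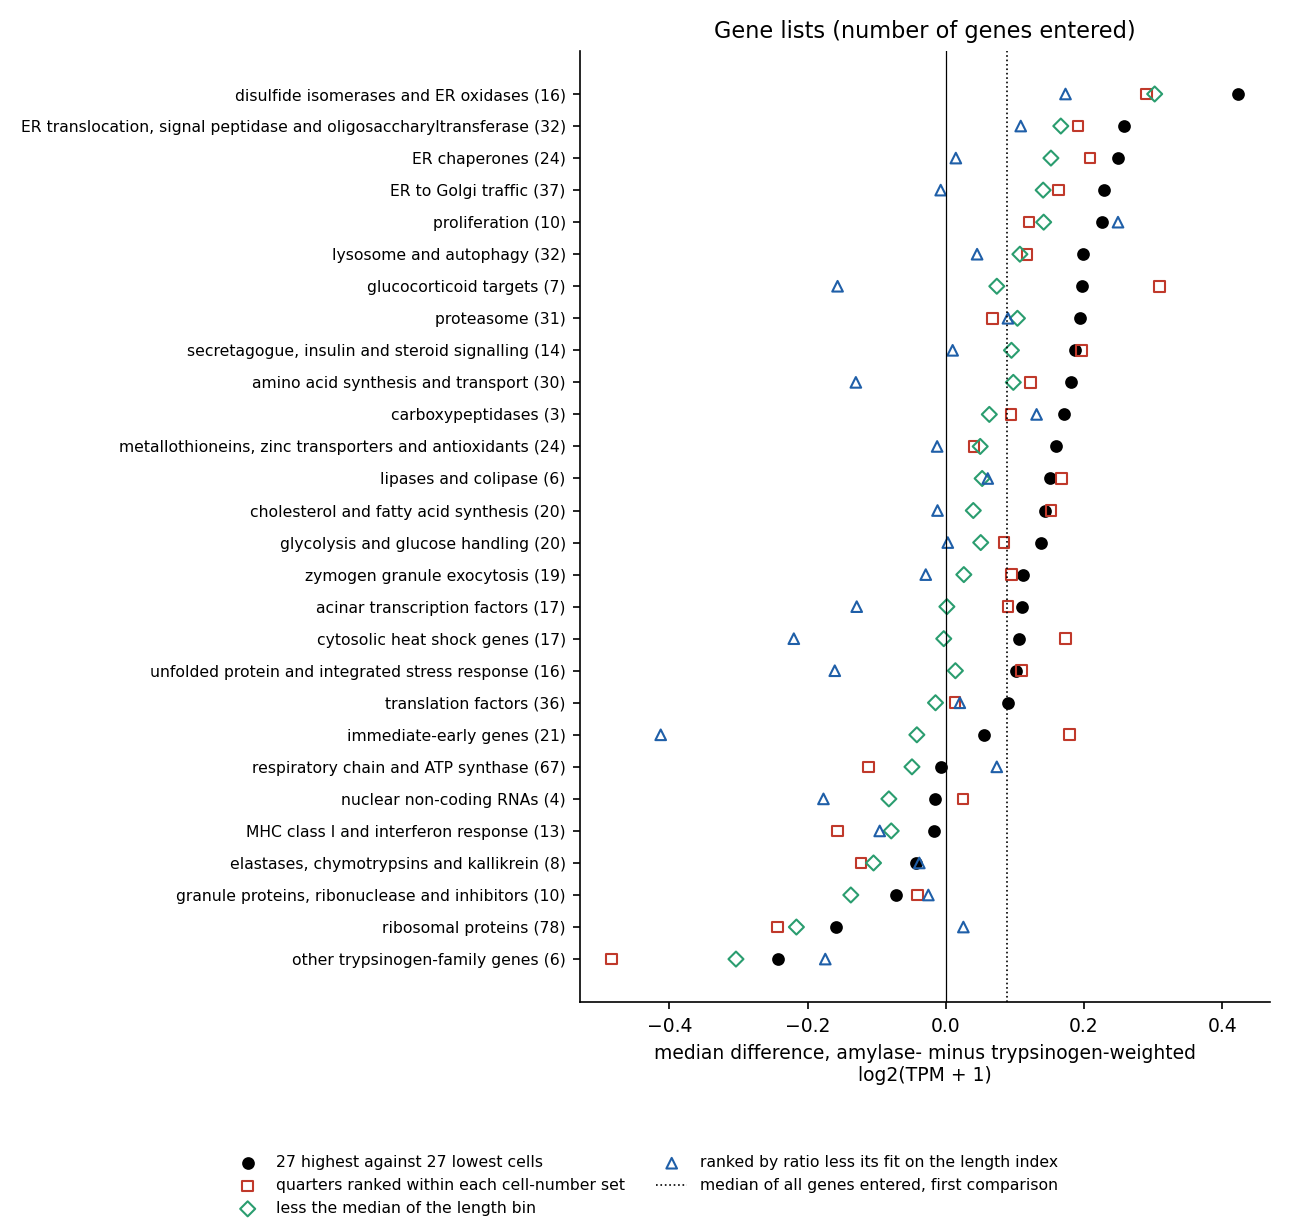
Median difference between amylase-weighted and trypsinogen-weighted cells of each gene list with 3 or more genes, on the log2(TPM + 1) scale, for 4 ways of ranking or adjusting, with the number of genes in brackets; marker lists are left out, and so is the Reg list, which lies off the axis at -1.03. The secretory lists lie right of the median of all genes (dotted line, 0.09) in the first ranking and nearer to 0 when the length index is fitted out. The ribosomal proteins move from -0.16 to 0.03 with that fit, and to -0.22 less the median of the length bin.

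Differences followed transcript length. Among 1338 genes with a mean of at least 5 TPM, the Spearman correlation of annotated transcript length with the difference was 0.40, and 0.43 within sets. The median difference was -0.14 for the shortest of 8 length bins (up to 556 bases) and 0.27 for the longest (2120 bases and over). Over 34 enzyme and granule genes outside the ratio, the correlation was 0.67. These correlations are across genes, which share the same 54 cells. The ratio itself sets amylase transcripts of up to 3717 bases over trypsinogen transcripts of 801 to 815. To follow this in single cells, a length index was taken as the mean z-score of long genes less that of short genes, with enzymes left out. It had a median of 0.19 in the amylase-weighted cells and -0.26 in the trypsinogen-weighted cells. Its Spearman correlation with the ratio was 0.48 over all cells, and 0.32, 0.60 and 0.55 in the 3 sets. Genes detected correlated with the index at 0.49, and their part in the relation was not tested. Subtracting from each gene the median of its length bin left 19 (0.263%) and 15 (0.208%) genes by fold and separation and 151 (2.09%) and 96 (1.33%) by separation, with 49.8% of differences above 0. List medians were then 0.30 for the isomerases, 0.17 for translocation, 0.15 for chaperones, 0.14 for traffic and -0.22 for ribosomal proteins. By separation 6 of 16, 9 of 32, 3 of 24 and 6 of 37 were called higher, against 2.09% of all genes. Of the ribosomal protein genes 15 of 78 were called lower, against 1.33%.

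**Figure D5:**
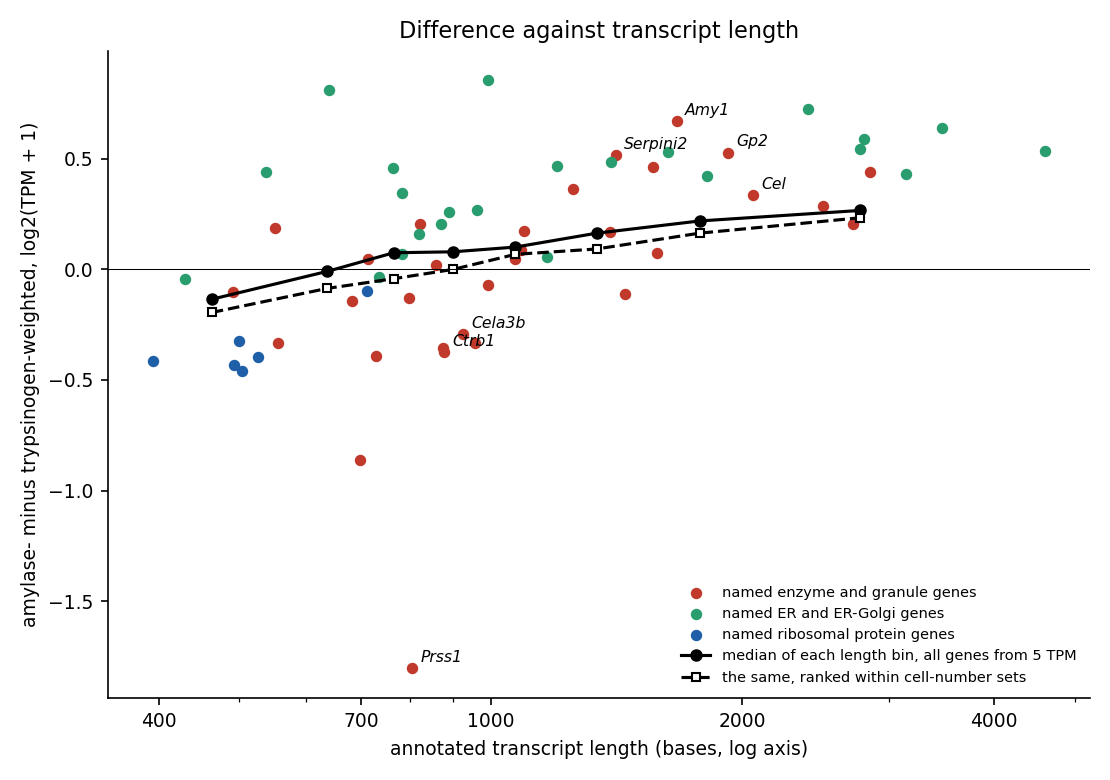
Difference between amylase-weighted and trypsinogen-weighted cells on the log2(TPM + 1) scale (vertical axis) against annotated transcript length in bases (log axis). Coloured points are named genes of 3 kinds, and the lines join the medians of 8 length bins over 1338 genes, as ranked first and within cell-number sets; the medians rise from -0.14 to 0.27, and Prss1, Ctrb1 and Cela3b lie under the line and Gp2 and Serpini2 above it.

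When the cells were ranked by the ratio less its fit on the length index, separation alone called 77 genes higher (1.07%) and 48 lower (0.665%), and 58 and 7 of these were among the first 371 and 31. Calls by fold and separation numbered 12 (0.166%) and 11 (0.152%), and 51.9% of differences were above 0. Of the enzyme and granule genes outside the ratio, Clps and Cela3a turned, from -0.10 to 0.04 and from -0.33 to 0.12, neither being called in either ranking. Ctrb1 stood at -0.35, Cela3b at -0.24, Sycn at -0.31, Gp2 at 0.41, Serpini2 at 0.40, Pnliprp1 at 0.33 and Prss1 at -1.20, while Cel went from 0.34 to 0.13, Pnlip from 0.17 to 0.09 and Spink1 from -0.39 to -0.17, and these 3 were no longer called. The list medians came closer to 0, at 0.17 for the isomerases, 0.11 for translocation, 0.01 for chaperones, -0.01 for traffic and 0.03 for ribosomal proteins, with 2 of 16, 1 of 32, 0 of 24, 2 of 37 and 0 of 78 called in the direction first seen and 1 translocation gene called in the other. In this ranking the secretory and ribosomal lists thus differed less between the ends, while Ctrb1, Cela3b and Sycn differed by nearly as much as before. Genes of the secretory and ribosomal lists could enter the length index, whereas enzyme and granule genes such as Ctrb1, Cela3b and Sycn could not. The fit can therefore shrink the former by construction, and no conclusion is drawn from this contrast. Leaving Amy2a1 out of the ratio gave -0.34 for Ctrb1, -0.24 for Cela3b, 0.42 for Gp2, 0.51 for Serpini2 and -1.64 for Prss1.

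The Reg genes, secreted lectins that acinar cells raise in injury, were uneven between the ends and between the cell-number sets. The summed list had a median of 11841 TPM in the amylase-weighted cells and 20896 in the trypsinogen-weighted cells, and 11020, 21727 and 9937 in the 3 sets. The start of the set of cells 49 to 91 was chosen after Reg levels were seen. The unevenness between sets is therefore partly selected, and neither it nor the ranking within sets can test whether Reg differed by set. Reg2 had medians of 33.03 TPM (0 to 2088) and 217 TPM (0.33 to 9527), a difference of -2.28 in the first ranking and -0.79 within sets. Reg3b went from -1.09 to 0.02. Over 7 genes the median went from -1.03 to -0.25, and none was called in either ranking. In the 3 sets alone the list median was 0.04, -1.09 and -0.21, so within cells 49 to 91 it was about as low as in the first ranking. With the length index fitted out, 4 of 7 were called lower, against 0.665% of all genes. The part of the sets in the difference was not tested.

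Over all cells, few genes tracked the ratio closely. Of 739 genes with a mean of at least 10 TPM, 3 had a Spearman correlation of 0.5 or more in size, namely Ctrb1, Cela3b and Gp2. The lowest belonged to Ctrb1 (-0.60), Cela3b (-0.53), Spink1 (-0.45), Sycn (-0.42) and Prss1 (-0.39), the highest to Gp2 (0.53), Cpb1 (0.495), Serpini2 (0.49), Adk (0.48) and Tram1 (0.46). Adk encodes adenosine kinase. For Ctrb1 the correlation was -0.57, -0.61 and -0.54 in the 3 sets and for Cela3b -0.59, -0.55 and -0.62. For Gp2 it was 0.61, 0.60 and -0.04. Most of the genes nearest to the ratio in their pattern over cells were enzyme, granule or inhibitor genes, and all share with it the libraries and a fixed total. Ctrb1, Cela3b and Gp2 were also abundant, at means of 100168, 27751 and 1366.5 TPM, whereas Serpini2 and Prss1 had 229 and 55.2. The part of level in these correlations was not tested.

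The largest called differences in favour of the amylase-weighted cells, after those already named, were mostly in genes of low level. Mfge8 differed by 1.03, at medians of 1.28 and 0 TPM, and Cpe, a carboxypeptidase of peptide hormone processing, by 0.93 at 3.93 and 0.90 TPM, and by 0.44 within sets. Hnrnpk, an RNA-binding protein (0.77, medians 15.8 and 8.34 TPM), Gclm of glutathione synthesis (0.78, 9.30 and 4.71 TPM) and Tmed4 of the cargo receptors (0.75, 7.57 and 4.37 TPM) were expressed in nearly all cells. The others among the 12 largest were Dars (0.80), Gpr89 (0.77), Lsm3 (0.73) and 1110032A03Rik (0.86). In the opposite direction only Shisa5 (-0.61) and Usp50 (-0.60) were called besides Prss1 and Gm5409. Within sets, 12 of the 26 named genes called by fold and separation were still called, namely Prss1, Gm5409, Shisa5, Usp50, Amy1, Gclm, Dars, Hnrnpk, Stt3a, Spcs3, Tmed4 and Becn1. Over all genes so called, 16 of the 77 higher and 4 of the 4 lower were still called within sets. The naming rule picks large differences, so the share of the named genes is not that of all called genes.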

How the data were processed

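Single-cell RNA-seq libraries of 108 mouse acinar cells were analysed from the deposited table of TPM, whose unit was taken from the values (columns sum to 1000000 or, in 21 cells, somewhat less). Per the submitters' processing notes, the tools included RSEM 1.2.21, STAR 2.4.2a and edgeR, and the build was mm10; the notes as used here assign them no step. The annotation behind the TPM is not given in the sources used here. TPM keep no depth and no counts, so no count model was used.

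Of 45195 gene rows, 44548 were matched to a symbol. Genes at 1 TPM or more in at least 11 cells entered (7218, the 9 genes of the ratio left out). Differences are of mean log2(TPM + 1), which understates changes of low genes. The pseudocount is 1, and ties counted as one in 2 in the share of pairs. Transcript lengths (the median over a gene's coding transcripts) and sequences came from GENCODE M21, whose GRCm38 assembly is the same as mm10. Pairs of transcripts were aligned locally (Biopython 1.88). The length index used genes with a mean of at least 10 TPM, the longest 25% against the shortest 25%. Analyses were run in Python 3.11.15 with pandas 2.3.3 and SciPy 1.17.1, and the comparison was tested on simulated data.

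All cells carry 1 label, so no test between groups was possible and nothing was treated as a replicate; no cell was left out and no doublet caller was run. The members and gene lists were chosen with earlier results of these data known, and the division after cell 48 was chosen after Reg levels were seen. Named genes were the 9 genes of the ratio, up to 12 called differences in each direction among genes in 27 or more cells, 3 genes of highest mean and 3 of largest difference of each list, and the 5 highest and 5 lowest correlations. Alternatives covered pseudocounts, filters, scalings, cells a side, other ratios and ranking within sets. The length bins, the length index, leaving out Amy2a1, weighting by length and each set alone were added after the data were seen. A gene that the naming rule selects is not reported here.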

Additional observations from a re-analysis of the deposited data

How the results depend on the processing

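The counts by fold and separation (77 higher and 4 lower in the amylase-weighted cells) and by separation alone (371 and 31) depended on several choices, and the cause was not tested. Counts by fold became 214 and 13 with a pseudocount of 0.1 and 0 and 1 with 10. They became 172 and 5 (separation 512 and 19) when rescaled without the ratio's genes, 228 and 16 without all enzymes, and 20 and 16 (164 and 134) with median-of-ratios scaling, which moved the median of all genes from 0.09 to 0.02. With 18 cells a side they were 144 and 28 (459 and 128), with 54 a side 0 and 0 (14 and 5), for Amy2a1 over Prss2 35 and 11 (186 and 52), within sets 19 and 10 (173 and 69), in full-total cells 119 and 9. Ranked by amylase alone they were 62 and 12 (303 and 53), by trypsinogen alone 34 and 16 (177 and 26). Of the settings added later, leaving out Amy2a1 gave 42 and 10, length weighting 35 and 10 (188 and 43), subtracting the length bin's median 19 and 15 (151 and 96), and the fit on the length index 12 and 11 (77 and 48). Single sets, with 11, 10 and 5 cells a side, gave 245 and 41, 323 and 122, and 349 and 746 (641 and 165, 983 and 401, 709 and 1686). Without cells 31, 37, 40 and 96 the counts were 58 and 6 (362 and 43). Of the lists, 22 lay above the median of all genes, and 15 to 29 under the alternatives. The 3 genes correlated with the ratio became 4, 27 and 43 within the sets. Differences that turned were Pdia4 (-0.11), Srp54a (-0.19) and Usp50 (0.10) ranked by trypsinogen alone, and Cpe (-0.18) and Becn1 (-0.15) in the last set alone. No paired analysis was possible because all cells form 1 group and their numbers name cells only.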
